A study of Capra hircus with 12 samples.

Results

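The genes described here are the nuclear genes of the respiratory chain and of ATP synthase, followed through the yearly cycle of the cashmere follicle. They were chosen by gene name. All names that begin with NDUFA, NDUFB, NDUFC, NDUFS or NDUFV and a number, the names SDHA to SDHD, and all names that begin with ATP5 were taken, and the NDUFAF assembly genes were left out. This gave 59 of 20326 genes, namely 38 NDUF genes under complex I, 4 SDH genes of complex II and 17 ATP5 genes under complex V. Nuclear subunits of complexes III and IV belong to the same rule and are not analysed here. All 59 members reached a value of 1 in 2 or more libraries and were tested, as were 16095 genes in all.

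RNA came from the secondary hair follicles of cashmere goats (Capra hircus) aged 1.5 years, the skin follicles that make the fine undercoat. May and September stand for anagen, in which hair grows, November and December for catagen, in which the follicle regresses, and February and March for telogen, in which it rests. With 1 male and 1 female library in each of the 6 months, a stage had 4 libraries and the study 12. Each month stood for a single stage, so stage cannot be told apart from season or time of collection. The labels give no treatment or genotype, and they do not say if an animal was sampled more than once. The p-values set differences between groups against the spread of libraries within groups. The male and female libraries of a month cannot share an animal, so in month comparisons that spread was one between the sexes. Within a stage, whether the 4 libraries came from separate animals is not known, since an animal may recur in another month.

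The respiratory chain passes electrons from food molecules to oxygen in the inner mitochondrial membrane and uses the energy to pump protons. Complex I takes the electrons from NADH and complex II takes them from succinate, and ATP synthase, or complex V, lets the protons flow back through a turning ring to make ATP. Most subunits are encoded in the nucleus and imported, and a few of complexes I, III, IV and V are encoded in the mitochondrial genome. All subunits of complex II are nuclear.

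Read depth is unknown, because the deposited values are a rescaled, length-corrected signal whose library sums run from 904623 to 1127797. On this scale levels of different genes can be compared. The 59 genes together took 0.986 to 1.17% of the summed signal in anagen libraries and 1.12 to 1.21% in catagen libraries. In telogen they took 0.904% and 1.02% in the February and March males, and 0.726% and 0.730% in the February and March females. Transcripts of the 13 protein-coding genes of the mitochondrial genome took 1.53 to 2.42% in anagen, 2.07 to 3.51% in catagen and 4.63 to 11.8% in telogen, where the March male had the lowest share. The ratio of mitochondrial genome signal to the signal of the 59 genes was 1.51 to 2.07 in anagen and 1.74 to 3.15 in catagen. In telogen it was 11.8 and 13.6 in the February male and female and 4.52 and 16.2 in the March male and female. Cytosolic ribosomal protein genes (74 genes) took 17.6 to 22.3%, 20.6 to 24.8% and 12.4 to 17.6% in anagen, catagen and telogen. The part of these shifts in the results below was not tested.

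**Figure D1:**
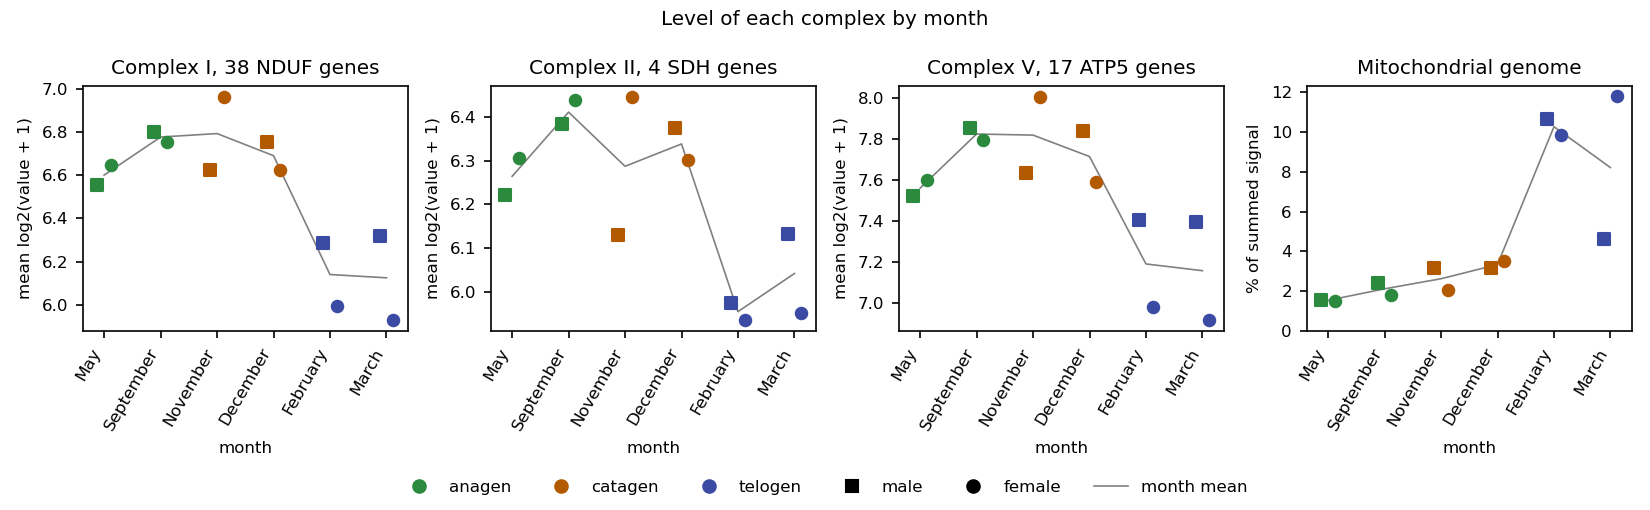
Level of each complex by month. The first 3 panels show the mean of log2(value + 1) over the genes of complexes I, II and V in each library, and the last shows the percent of the summed signal taken by mitochondrial genome transcripts; squares are males, circles females, colours the stages and the grey line the mean of each month. Both female telogen libraries lie below all other libraries in complexes I and V, and all 4 telogen libraries have the highest mitochondrial genome shares, 4.63 to 11.8%.

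A list of keratins found in follicles and trichohyalin was summed in each library. It includes KRT14 and KRT5, which are not particular to follicles, so the sums do not measure how pure the follicles were. Of 11 listed markers 8 were measured, and none was at 0 in any library. Their summed level was 28685 to 35983 in anagen, 22939 to 33914 in catagen and 9852 to 21225 in telogen. In whole follicles, fewer cells of a type and less RNA per cell cannot be told apart.

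As complexes, all 3 were lowest in telogen. The mean of log2(value + 1) over the complex I genes was 6.69 ± 0.11 in anagen, 6.74 ± 0.159 in catagen and 6.13 ± 0.198 in telogen (SD, n = 4 libraries each). Complex II stood at 6.34 ± 0.0942, 6.31 ± 0.135 and 5.999 ± 0.0902 in the same order of stages. Complex V stood at 7.69 ± 0.158, 7.77 ± 0.191 and 7.18 ± 0.262. In each of complexes I and V the anagen and catagen libraries overlapped, and all 4 telogen libraries lay below them. In complex II the November male, at 6.13, lay level with the March male, also at 6.13. The telogen minus catagen gap was -0.61, -0.31 and -0.59 for complexes I, II and V. It was -0.39, -0.11 and -0.32 after removal of a trend in each library. That trend was the median deviation from the gene means over the 100 nearest tested rows of the deposited table, the 59 members left out. In that table the members stood roughly from high to low level, from ATP5E first to ATP5S last.

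Telogen, in February and March, was set against catagen, in November and December. Most of the nuclear subunit transcripts were lower in telogen. Of the 59 members 38 were lower (64.4%), against 19% of all 16095 genes tested, and 1 was higher, against 24.5% of all genes. The remaining 20 did not pass. The median log2 change was -0.49 over the 59 members and 0.07 over all genes tested, and the members' changes ran from -1.52 to 1.16. With the trend of neighbouring rows removed, the members' median was -0.25 and that of all genes -0.006. In that setting 26 members were lower, against 18.5% of all genes. All 4 telogen libraries lay below all 4 catagen libraries in 31 members, against 15.9% of all genes, and above them in 0 members, against 19.9%. A gene passed at a Benjamini-Hochberg adjusted p under 0.05 in limma over all genes tested.

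Follicle and other marker lists were counted in the same comparison. Of the 8 measured follicle markers 6 were lower in telogen (75%, against 19% of all genes) and 0 higher (against 24.5%). Their median log2 change was -1.06. Their part in the fall of the respiratory genes was not tested. Of 3 adipocyte markers tested, of 5 listed, 1 was higher (33.3%, against 24.5% of all genes). Their summed level was 19.04 to 24.74 in telogen and 13.78 to 16.8 in catagen, and LEP was at 0 in 1 of the 12 libraries. Of 4 epidermal markers 1 was higher (25%), a share near the 24.5% of all genes. Their sums were 1483 to 2752 in telogen and 1090 to 1944 in catagen. None of 6 dermal fibroblast markers, 11 skeletal muscle markers and 1 blood marker passed.

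Anagen was set against telogen, which compares the growing with the resting follicle. Of the 59 members 36 were higher in anagen (61.0%), against 23.7% of all genes, and 3 were lower, against 29.2% of all genes. The median log2 change was 0.51 over the members and -0.07 over all genes, and the members' changes ran from -1.76 to 2.02. All 4 anagen libraries lay above all 4 telogen libraries in 33 members, against 20.1% of all genes, and below them in 1, against 23.2%. The 4 telogen libraries serve in both comparisons, so the values below are given side by side and do not support each other. Of the follicle markers 7 of 8 were higher in anagen (87.5%, against 23.7% of all genes, median 1.26). Of the muscle markers 3 of 11 were higher (27.3%), a share near that of all genes. Their summed level was 263 to 269 in May, 10.3 to 15.6 in September and 7.6 to 14.68 in telogen.

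Catagen was set against anagen, the step at which growth ends. In limma 0 of the 59 members passed in either direction, against 0% higher and 0.0559% lower of all genes, and 5 had an unadjusted p under 0.05 (8.47%), a smaller share than the 15.7% of all genes. The 5 were ATP5E, NDUFA3, ATP5J2, NDUFS5 and NDUFV2. The members' median change was 0.04, with a range of -0.52 to 0.71. All 4 catagen libraries lay above all 4 anagen libraries in 2 members, NDUFS5 and NDUFA4L2, against 3.4% of all genes, and below them in 0, against 3.63%.

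**Figure D2:**
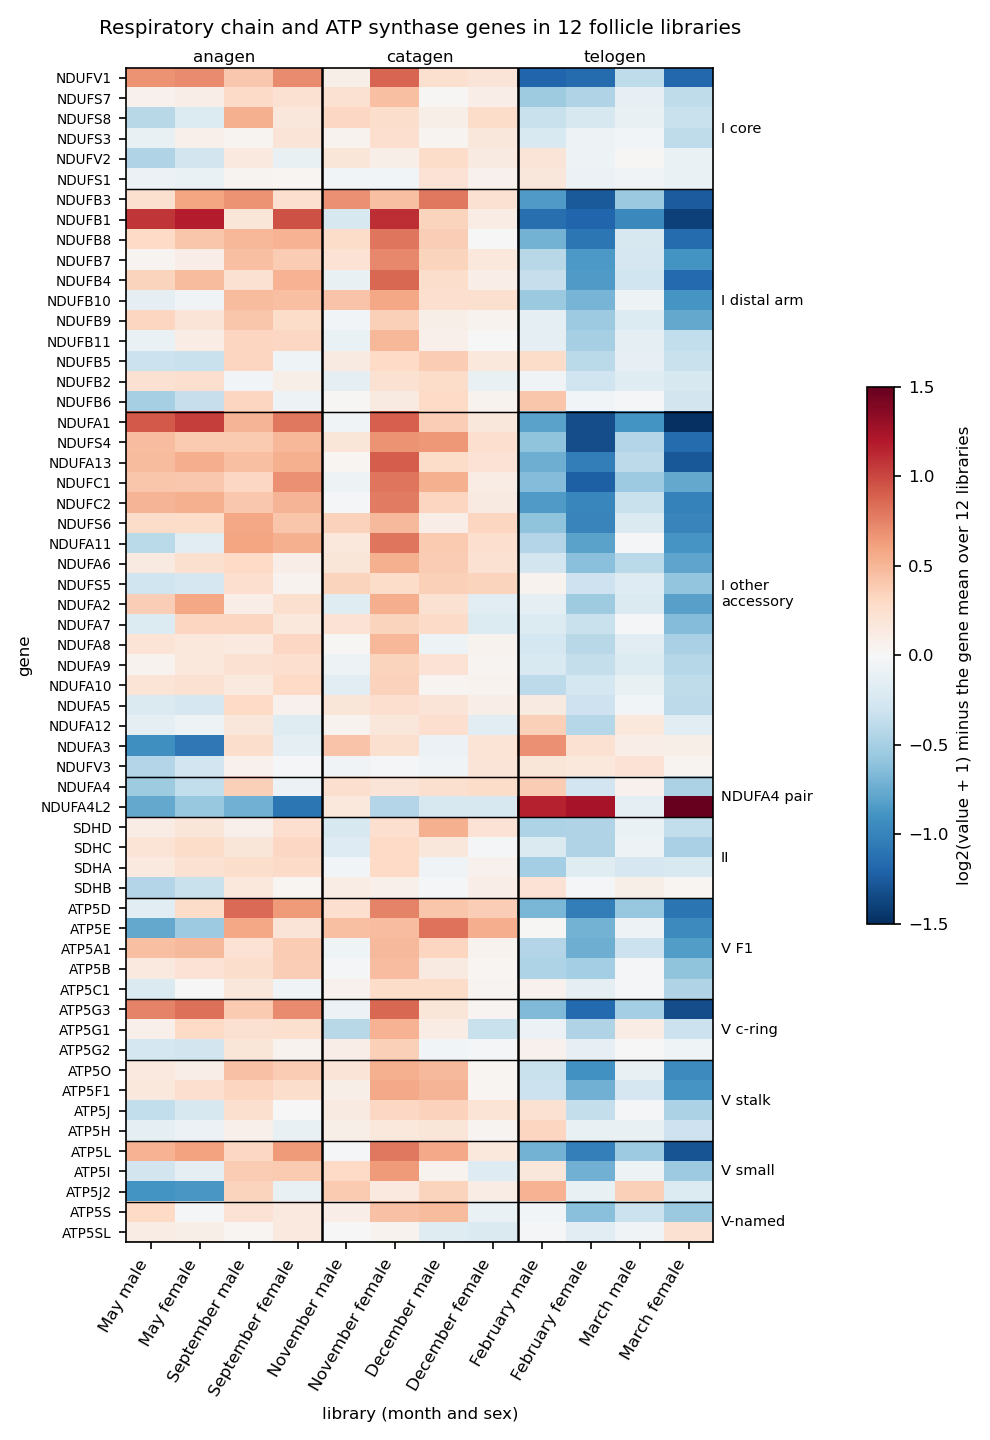
Values of 58 of the 59 genes in all 12 libraries. Rows are genes grouped by their place in the complexes, columns are libraries by month with the male left of the female, and colour is log2(value + 1) minus the gene's mean over the 12 libraries, cut at -1.5 and 1.5. The telogen columns are blue in most rows, palest in the March male, while NDUFA4L2 is red in 3 of the 4 telogen libraries.

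The core of complex I is the set of subunits shared with bacteria that hold the flavin and the iron-sulfur clusters; 7 nuclear core genes were measured. Of these 4 were lower in telogen than in catagen (57.1%, against 19% of all genes), with a median change of -0.31. In anagen against telogen 3 were higher (42.9%, against 23.7% of all genes), with a median of 0.23. NDUFV1 (gene ID 102184322) encodes the flavoprotein that binds NADH, where electrons enter the complex. Its values, May before September and male before female, were 71.3, 72.7, 58.8 and 72.7 in anagen. They were 47.1, 82.0, 52.3 and 50.6 in catagen and 18.85, 19.35, 33.7 and 18.9 in telogen, each listed by month and with the male first. The telogen libraries lay below all the others, and the March male was the highest of them. The log2 change was -1.32 in telogen against catagen (SE 0.198, adjusted p = 5.94e-04) and 1.60 in anagen against telogen (SE 0.198, adjusted p = 1.54e-04).

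The partner of NDUFV1 in the NADH module is NDUFV2, which carries an iron-sulfur cluster. In the main setting it did not pass in either comparison: the change was -0.16 in telogen against catagen (adjusted p = 0.291) and -0.18 in anagen against telogen (adjusted p = 0.233). NDUFV2 was called in anagen against telogen in 2 of 23 alternative settings (lowest adjusted p = 0.0432). The ratio of the NDUFV1 to the NDUFV2 value was 1.28 ± 0.311 in anagen, 0.834 ± 0.271 in catagen and 0.364 ± 0.118 in telogen (SD, n = 4). The transcripts of these 2 neighbours in the complex therefore stood in unequal proportion across the stages. Among the other core genes NDUFS7 and NDUFS8, whose clusters hand electrons on to ubiquinone, were lower in telogen than in catagen by log2 changes of -0.57 and -0.49, and NDUFS3 by -0.31. NDUFS1, the largest subunit of the NADH arm, had a change of -0.07 (adjusted p = 0.565). NDUFS7 was higher in anagen than in telogen by 0.54. The NDUFS8 and NDUFS3 calls in telogen against catagen were lost in 8 and 7 of the 23 alternative settings.

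NDUFB genes encode accessory subunits of the distal membrane arm, the end of the arm farthest from the NADH site. They fell in telogen against catagen in 8 of 11 cases (72.7%, against 19% of all genes), with a median change of -0.93. In each of the 8 all telogen libraries lay below all catagen libraries, as in 15.9% of all genes. Of the same 11, 9 were higher in anagen than in telogen (81.8%, against 23.7% of all genes, median 0.74). NDUFB3 (gene ID 102168216) had values of 123, 157, 167 and 124 in anagen, 168, 142, 181 and 122 in catagen and 57.2, 43.0, 70.6 and 43.2 in telogen. Anagen and catagen overlapped, and telogen lay apart and low. Its change was -1.52 in telogen against catagen (SE 0.177, adjusted p = 2.47e-04), a level 0.350 of that in catagen, and 1.42 in anagen against telogen (SE 0.177, adjusted p = 1.57e-04).

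NDUFB1 (gene ID 102189802) showed the largest rise in anagen against telogen among the 59 genes. It had 187, 203, 100.4 and 173 in anagen, 75.1, 192, 113 and 95.6 in catagen and 39.9, 38.3, 44.8 and 33.1 in telogen. The 4 telogen values were close together, while the November female stood above the other 3 catagen libraries. The change was 2.02 in anagen against telogen (SE 0.263, adjusted p = 1.72e-04), or 4.05-fold, and -1.502 in telogen against catagen (SE 0.263, adjusted p = 0.00122). Of the other distal arm genes, NDUFB8, NDUFB7, NDUFB4 and NDUFB10 were lower in telogen than in catagen by -1.16, -0.97, -0.95 and -0.93, and NDUFB9 and NDUFB11 by -0.53 and -0.40. NDUFB5, NDUFB2 and NDUFB6 did not pass in that comparison, with changes of -0.39, -0.26 and -0.11. NDUFB5 and NDUFB2 were called there in 3 and 2 of 23 alternative settings. The NDUFB11 call in telogen against catagen was lost in 7 of 23 alternative settings. In anagen against telogen NDUFB2 lost its call in 8 and NDUFB11 in 3 of them.

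The other 18 accessory genes of complex I surround the core along both arms. Of these, 14 were lower in telogen than in catagen (77.8%, against 19% of all genes) and 0 higher (against 24.5%), with a median of -0.56. The growing follicle had 13 higher (72.2%, against 23.7%) and 2 lower (11.1%, against 29.2%) than the resting one (median 0.61). NDUFA1 (gene ID 102177419), a small membrane subunit needed for assembly in mammalian cells, had 271, 294, 202 and 246 in anagen, 137, 267, 185 and 159.7 in catagen and 80.9, 56.0, 75.9 and 45.8 in telogen. Every telogen library was below every library of the other stages. The change was -1.51 in telogen against catagen (SE 0.217, adjusted p = 5.12e-04) and 1.98 in anagen against telogen (SE 0.217, adjusted p = 1.12e-04).

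NDUFS4 (gene ID 102170635), an accessory subunit that steadies the NADH arm and is known from inherited complex I deficiency in humans, had 132, 126, 126 and 136 in anagen. It had 109, 154, 151 and 114 in catagen and 62.7, 37.5, 70.35 and 42.5 in telogen. Anagen and catagen had nearly the same mean, 130.0 ± 4.88 and 132 ± 23.6, against 53.2 ± 15.8 in telogen (SD, n = 4). Both male telogen libraries lay above both female ones. The change was -1.32 in telogen against catagen (SE 0.184, adjusted p = 4.75e-04) and 1.32 in anagen against telogen (SE 0.184, adjusted p = 2.13e-04). Other falls in telogen against catagen were those of NDUFA13 (-1.22), NDUFC1 (-1.14), NDUFC2 (-1.10), NDUFS6 (-1.01), NDUFA11 (-0.94) and NDUFA6 (-0.85). NDUFA2, NDUFA7, NDUFA8, NDUFA9 and NDUFA10 fell by 0.35 to 0.53 on the log2 scale. Of these, NDUFA2 lost its call in 6, NDUFA7 in 7 and NDUFA10 in 2 of 23 alternative settings, and NDUFA8 with the trend of neighbouring rows removed (adjusted p = 0.349).

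NDUFS5 (gene ID 102170016), one of the complex I genes with the highest means, had 248, 258, 364 and 319 in anagen, 388, 371, 394 and 385 in catagen and 318, 246, 267 and 203 in telogen. Catagen lay above both other stages in every library, and anagen and telogen overlapped. It was lower in telogen than in catagen by -0.59 (SE 0.153, adjusted p = 0.0086), a call lost with the trend of neighbouring rows removed (adjusted p = 0.224). Anagen against telogen gave 0.20 (adjusted p = 0.285).

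NDUFA3 and NDUFV3, a membrane arm subunit and an NADH arm subunit, were lower in anagen than in telogen, unlike most members. NDUFA3 (gene ID 102172091) had 97.3, 87.0, 221 and 167 in anagen, against 296, 216, 198 and 195 in telogen; the catagen values were 247, 218, 174 and 212. The 2 May libraries were lowest and the September male lay within the telogen range. Its change was -0.74 in anagen against telogen (SE 0.257, adjusted p = 0.0275), and without both May libraries it was -0.21 (adjusted p = 0.422). NDUFV3 (gene ID 102183643) had 26.1, 29.2, 37.6 and 35.3 in anagen, against 40.8, 40.1, 41.6 and 36.8 in telogen, a change of -0.32 (SE 0.113, adjusted p = 0.0304). Without both May libraries it was -0.12 (adjusted p = 0.381). The NDUFA3 and NDUFV3 calls were lost in 5 and 8 of 23 alternative settings. Neither passed in telogen against catagen, with 0.08 (adjusted p = 0.827) and 0.13 (adjusted p = 0.356).

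**Figure D3:**
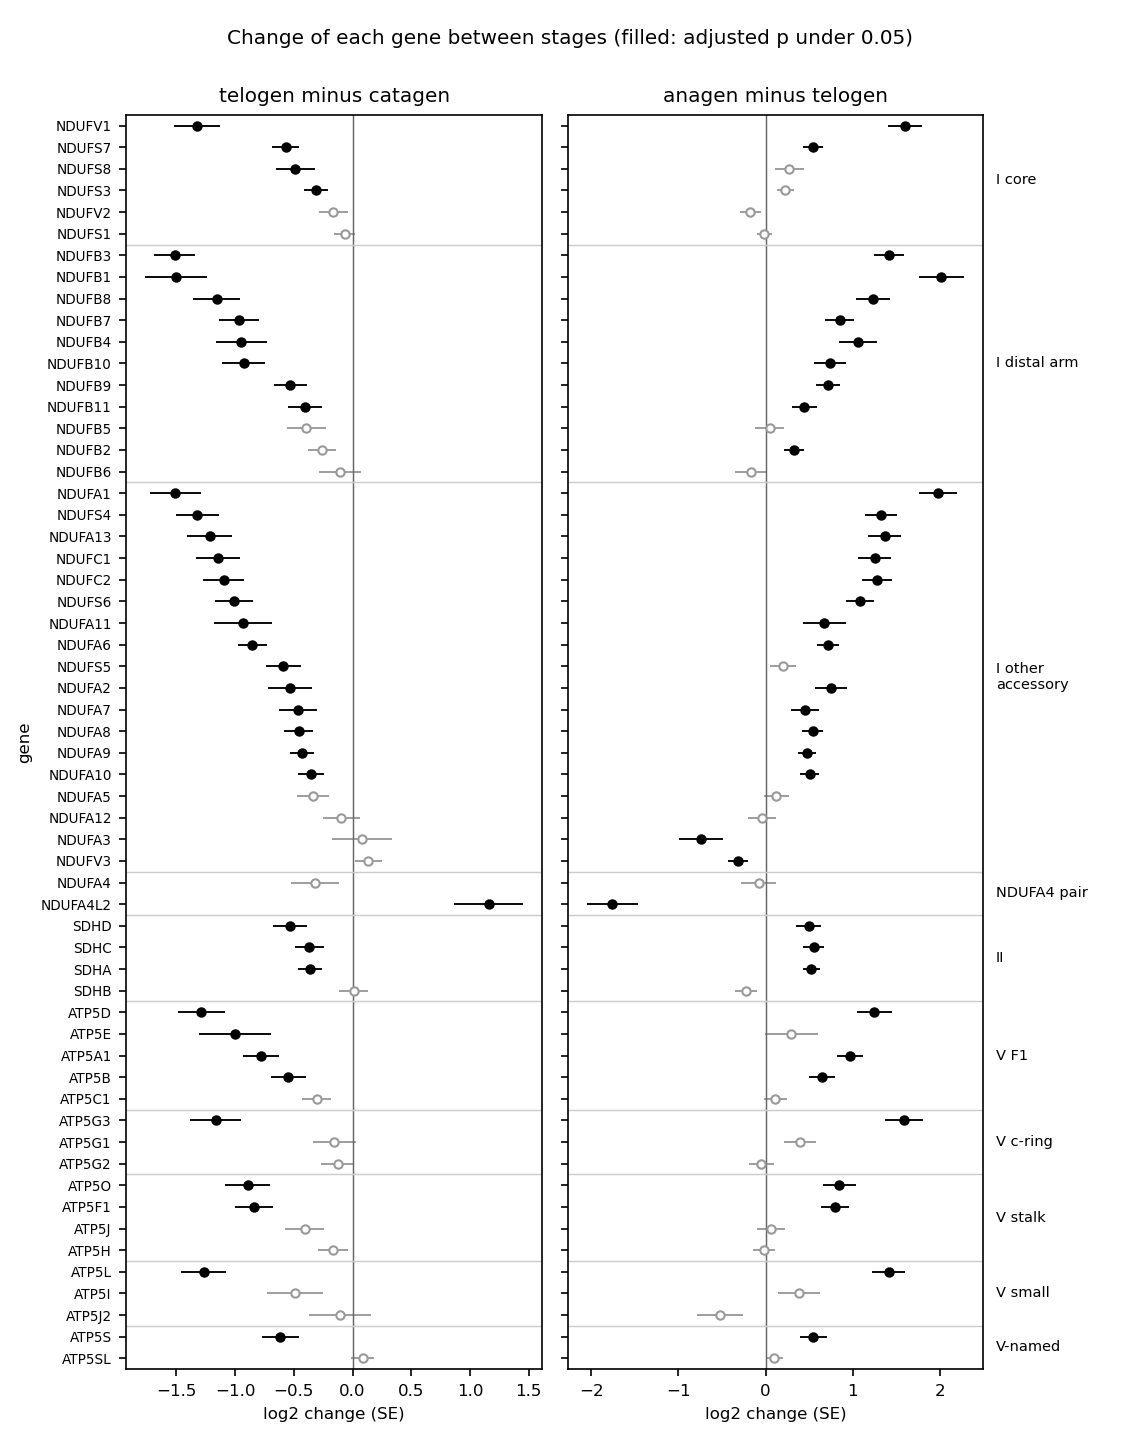
Log2 change of each of 58 of the 59 genes in telogen minus catagen (left) and anagen minus telogen (right). Points are limma estimates with bars of 1 SE, filled where the adjusted p over all genes is under 0.05, and genes are grouped by place in the complexes. On the left 38 filled points lie below 0 and 1, NDUFA4L2, above; on the right 35 lie above 0 and 3, NDUFA3, NDUFV3 and NDUFA4L2, below.

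NDUFA4 and NDUFA4L2 carry complex I names, but NDUFA4 is now assigned to complex IV, and NDUFA4L2 is its paralogue, known for induction under low oxygen in cultured human cells. NDUFA4L2 (gene ID 102179638) was the 1 member higher in telogen than in catagen. It had 32.9, 37.8, 34.1 and 26.1 in anagen, 63.5, 41.6, 48.0 and 47.9 in catagen and 128, 134, 51.0 and 179 in telogen. The March male, at 51.0, lay within the catagen range, and the other 3 telogen libraries lay above every other library. The change was 1.16 in telogen against catagen (SE 0.293, adjusted p = 0.00768), or 2.23-fold, and -1.76 in anagen against telogen (SE 0.293, adjusted p = 5.02e-04).

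NDUFA4 itself (gene ID 100861284) had 213, 238, 397 and 291 in anagen, 367, 354, 366 and 375 in catagen and 404, 253, 323 and 222 in telogen. Catagen values were close together, while anagen and telogen both ran from below to above them. In the main setting neither comparison passed: -0.32 in telogen against catagen (adjusted p = 0.219) and -0.08 in anagen against telogen (adjusted p = 0.762). With the trend of neighbouring rows removed, NDUFA4 was called lower in anagen than in telogen (adjusted p = 0.0339). The NDUFA4L2 share of the summed value of the pair was 10.8 ± 3.16% in anagen, 12.1 ± 1.86% in catagen and 29.3 ± 13.4% in telogen (SD, n = 4). In telogen it was 24.0% and 34.7% in the February male and female, and 13.7% and 44.7% in the March male and female.

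Complex II has 4 subunits, the flavoprotein SDHA, the iron-sulfur protein SDHB, and the anchors SDHC and SDHD, which hold the pair to the membrane. SDHA, SDHC and SDHD were lower in telogen than in catagen and higher in anagen than in telogen. In the main setting SDHB passed in neither comparison. SDHA (gene ID 102183107) had 68.2, 72.5, 73.9 and 75.4 in anagen, 60.02, 75.7, 59.2 and 64.4 in catagen and 43.0, 54.0, 51.5 and 52.4 in telogen. All telogen libraries were below all others, by a smaller margin than in the complex I genes with the largest changes. The change was -0.36 in telogen against catagen (SE 0.101, adjusted p = 0.0126) and 0.53 in anagen against telogen (adjusted p = 0.0011). With the trend of neighbouring rows removed, the call against catagen was lost (adjusted p = 0.115).

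SDHC (gene ID 102189176) had 68.9, 72.7, 67.85 and 74.5 in anagen, 52.1, 73.6, 67.2 and 58.2 in catagen and 51.3, 43.3, 56.5 and 42.3 in telogen. The November male lay below the March male, so telogen and catagen overlapped. The change in telogen against catagen was -0.37 (SE 0.121, adjusted p = 0.026); it did not pass in 5 of 23 alternative settings. SDHD (gene ID 100860881) had 72.3, 76.2, 70.5 and 80.2 in anagen, 56.8, 79.9, 97.8 and 77.9 in catagen and 48.5, 48.75, 62.8 and 51.9 in telogen, with the same overlap of the November and March males. Its change was -0.53 (SE 0.142, adjusted p = 0.00982), and in anagen against telogen SDHC and SDHD had 0.55 (adjusted p = 0.00228) and 0.50 (adjusted p = 0.0107). The SDHD call in anagen against telogen was lost in 2 of 23 alternative settings, with an adjusted p of up to 0.057.

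SDHB (gene ID 102183195) had 86.5, 93.0, 131 and 119.7 in anagen, 127, 123, 116 and 126 in catagen and 136, 115, 125 and 119.5 in telogen. Its 2 May values were the lowest of all, and telogen and catagen overlapped throughout. The change was 0.01 in telogen against catagen (SE 0.125, adjusted p = 0.961) and -0.22 in anagen against telogen (adjusted p = 0.15). SDHB was called higher in telogen than in catagen with the trend of neighbouring rows removed (adjusted p = 0.0354). It was called lower in anagen than in telogen in 4 of 23 alternative settings (lowest adjusted p = 0.00207). The ratio of SDHB to SDHA, which bind each other in the enzyme, was 1.48 ± 0.244 in anagen, 1.91 ± 0.206 in catagen and 2.50 ± 0.463 in telogen (SD, n = 4).

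ATP synthase has a catalytic head, F1, that turns on a central stalk, a ring of c subunits in the membrane, a peripheral stalk that holds the head still, and small membrane subunits. Of the 17 ATP5 genes 9 were lower in telogen than in catagen (52.9%, against 19% of all genes) and 0 higher (against 24.5%). In anagen against telogen 8 were higher (47.1%, against 23.7% of all genes) and 0 lower (against 29.2%). Of the 5 F1 genes, 4 were lower in telogen than in catagen (80%, against 19%). ATP5D, the delta subunit of the central stalk, fell most of these, with -1.29 (adjusted p = 7.08e-04), and stood 1.24 higher in anagen than in telogen. The head subunits ATP5A1 (alpha) and ATP5B (beta, which holds the catalytic sites) had -0.78 and -0.55 in telogen against catagen and 0.97 and 0.65 in anagen against telogen. The ATP5B call against catagen was lost with the trend of neighbouring rows removed (adjusted p = 0.133). The gamma subunit gene ATP5C1 did not pass in either, with -0.31 (adjusted p = 0.065) and 0.11 (adjusted p = 0.466). In telogen against catagen it was called in 2 of 23 alternative settings.

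ATP5E (gene ID 102188061), the epsilon subunit of the central stalk, had the highest value of the 59 genes in every library. It stood at 843, 983, 2145 and 1645 in anagen, 1963, 1989, 2529 and 2104 in catagen and 1452, 877, 1367 and 743 in telogen. Both September libraries were above both May libraries, and both male telogen libraries were above both female ones. The change was -1.0004 in telogen against catagen (SE 0.304, adjusted p = 0.0184) and 0.29 in anagen against telogen (adjusted p = 0.431). The call in telogen against catagen was lost with month means, without the February female, without the March female and with the shared trend of neighbouring rows removed, with an adjusted p of up to 0.103. Without both May libraries ATP5E was called higher in anagen than in telogen (adjusted p = 0.0472).

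The c ring is encoded by 3 genes, ATP5G1, ATP5G2 and ATP5G3, which in mammals make the same mature protein with different import sequences. ATP5G3 (gene ID 102180353) had 253, 269, 199 and 247 in anagen, 142, 276, 172 and 155 in catagen and 94.6, 66.6, 106 and 59.4 in telogen. All telogen libraries lay below all others. The change was -1.17 in telogen against catagen (SE 0.219, adjusted p = 0.00165) and 1.59 in anagen against telogen (SE 0.219, adjusted p = 2.11e-04), or 3.003-fold.

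ATP5G2 (gene ID 102168606) had 422, 418, 577 and 524 in anagen, 545, 648, 494 and 500.3 in catagen and 531, 467, 509.9 and 485 in telogen. The 3 stages overlapped, with changes of -0.13 in telogen against catagen (SE 0.141, adjusted p = 0.486) and -0.05 in anagen against telogen (adjusted p = 0.785). With the trend of neighbouring rows removed, ATP5G2 was called lower in anagen than in telogen (adjusted p = 0.0369). ATP5G1 (gene ID 102168293) was the least abundant, with 41.3, 48.3, 46.03 and 46.5 in anagen, 28.96, 56.5, 42.4 and 30.8 in catagen and 36.65, 28.4, 42.4 and 31.1 in telogen. In the main setting it did not pass (-0.16, adjusted p = 0.513, and 0.40, adjusted p = 0.0837). It was called higher in anagen than in telogen in 3 of 23 alternative settings (lowest adjusted p = 0.0243). The ATP5G2 share of the summed value of the 3 genes was 62.5 ± 5.95% in anagen, 71.3 ± 4.30% in catagen and 81.3 ± 3.05% in telogen, and that of ATP5G3 was 31.6 ± 5.62%, 23.7 ± 3.48% and 13.1 ± 2.56% (SD, n = 4). The summed value was 773 ± 54.8, 772 ± 139 and 615 ± 53.3 in the 3 stages. The mix of c ring transcripts thus held more ATP5G2 and less ATP5G3 in every telogen library than in any other library.

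**Figure D4:**
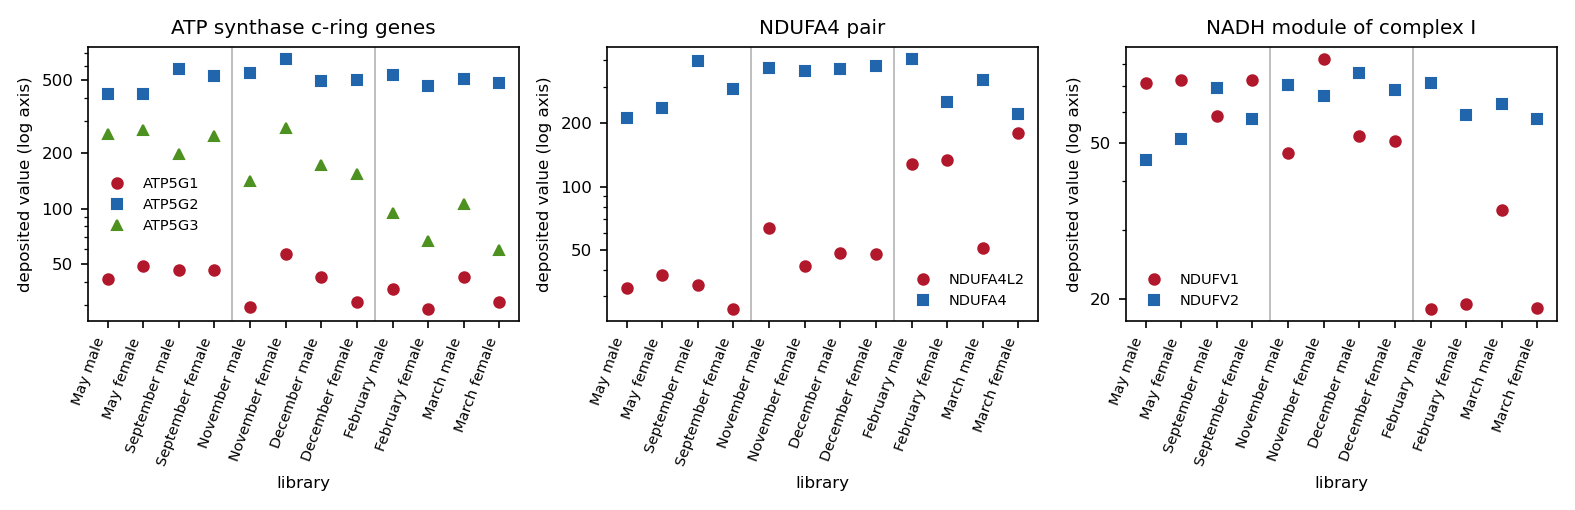
Deposited values, on log axes, of 3 sets of related genes in the 12 libraries, in month order with the male left of the female; grey lines divide anagen, catagen and telogen. ATP5G3 is lowest in telogen while ATP5G2 stays between 418 and 648, NDUFA4L2 is highest in 3 telogen libraries while NDUFA4 runs from 213 to 404, and NDUFV1 is lowest in telogen.

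In the peripheral stalk 2 of 4 genes were lower in telogen than in catagen (50%, against 19% of all genes). ATP5O, the OSCP subunit that grips the head, had -0.89 (adjusted p = 0.00326) and ATP5F1, subunit b, had -0.84 (adjusted p = 0.0019), and in anagen against telogen they had 0.85 and 0.80. ATP5J (subunit F6) and ATP5H (subunit d) did not pass in telogen against catagen, with -0.41 (adjusted p = 0.0607) and -0.17 (adjusted p = 0.31). They were called there in 3 and 1 of 23 alternative settings. Of the small membrane subunits ATP5L, subunit g, was lower in telogen than in catagen (-1.27, adjusted p = 5.90e-04) and higher in anagen than in telogen (1.41, adjusted p = 1.89e-04). ATP5I, subunit e, had -0.49 (adjusted p = 0.113) in telogen against catagen. ATP5J2 (gene ID 102170107), subunit f, had 431, 439, 1013 and 745 in anagen, 1051, 892, 1011 and 867 in catagen and 1153, 741, 1029.7 and 696 in telogen. Its 2 May values were far below the others, and it did not pass in telogen against catagen (-0.11, SE 0.265, adjusted p = 0.767) or in anagen against telogen (-0.52, adjusted p = 0.112). In 4 of 23 alternative settings it was called lower in anagen than in telogen (lowest adjusted p = 0.012).

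Of the 17 genes named ATP5, 2 are not subunits of ATP synthase. ATP5S, a coupling factor, was lower in telogen than in catagen (-0.61, adjusted p = 0.00765). ATP5SL, an assembly factor of the distal arm of complex I in human cells, had 0.08 (adjusted p = 0.513). ATP5S had the lowest value of the 59 genes in 11 libraries and ATP5SL in the December male. Among the 15 subunits of ATP synthase 8 were lower in telogen than in catagen (53.3%, against 19% of all genes).

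Across the 6 months, 31 of the 59 members differed by the F test of limma (52.5%), against 32.7% of all genes, with 2 libraries a month. The spread in that test was the one between the male and the female library of a month. The members that differed were 21 complex I genes, 2 of complex II and 8 of complex V. The mean of the month was highest in May for 7, in September for 8, in November for 10, in December for 4, in February for 2 and in March for 0. It was lowest in May for 4, in September for 1, in November and December for 0, in February for 19 and in March for 7. Genes highest in May included NDUFA1, with month means of 283, 224, 202, 172, 68.5 and 60.9, May to March. ATP5D was highest in September, with 154, 246, 209, 192, 80.7 and 83.3. NDUFB3 was highest in November, with 140.0, 145, 155, 152, 50.1 and 56.9. The 2 genes highest in February were NDUFA3 and NDUFA4L2. The number that differed was 18 without the May male or without the May female, and 20 without the September male, the September female or the December male.

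Months of the same stage were compared next. In September against May 0 of 59 members passed in limma, against 0.0311% higher and 0.106% lower of all genes, and 15 had an unadjusted p under 0.05, all 15 higher in September (25.4%), against 5.15% of all genes in that direction. Both September libraries lay above both May libraries in 29 members, against 25.5% of all genes, and below them in 6, against 26.5%. The median change was 0.12, with a range of -0.56 to 1.05. NDUFA3 (1.05, SE 0.198, adjusted p = 0.106), ATP5E (1.04, adjusted p = 0.401) and ATP5J2 (0.997, adjusted p = 0.316) had the largest differences. The 6 members with both September libraries below were ATP5A1, NDUFA1, ATP5G3, NDUFB1, NDUFA2 and NDUFB2. Skeletal muscle markers moved in the same comparison: 8 of 11 measured, of 14 listed, were lower in September (72.7%, against 0.106% of all genes, median -3.13). Their summed level was 15.6 and 10.3 in the September male and female and 263 and 269 in the May male and female. MYL1 was at 0 in 5 of the 12 libraries and MYLPF, TNNC2 and MB in 1 each. Their part was not tested.

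The 2 months of catagen and of telogen were compared likewise. In December against November 0 members passed and 0 had an unadjusted p under 0.05, with a median of -0.09. Of all genes 0% passed in either direction and 3.65% had an unadjusted p under 0.05. In March against February 0 passed and 0 had an unadjusted p under 0.05, with a median of -0.02. Of all genes 0% were higher and 0.00621% lower, and 3.95% had an unadjusted p under 0.05.

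In male against female, with month as a block, 0 members passed in limma, against 0.0435% higher and 0.0124% lower of all genes. Of the 59, 45 had a positive change (76.3%), against 51.8% of all genes, with a median of 0.05 and a range of -0.25 to 0.35. The 3 members with an unadjusted p under 0.05, ATP5J2, NDUFB3 and NDUFA12, were 5.08% of the 59, a smaller share than the 7.36% of all genes. Within telogen both males lay above both females in the mean of log2(value + 1) over the 59 genes, at 6.59 and 6.62 in the February and March males and 6.27 and 6.22 in the February and March females. In telogen against catagen the median change was -0.29 with 49 of 59 negative in males, and -0.69 with 56 of 59 negative in females, each from 2 libraries a stage. In anagen against telogen it was 0.36 with 41 positive in males and 0.66 with 51 positive in females. The difference between the sexes in these changes was not tested.

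Other genes that build and serve the complexes were counted as lists. NDUFAB1, a complex I subunit outside the name rule that also carries acyl groups in fatty acid synthesis, was lower in telogen than in catagen (-0.31, adjusted p = 0.0136) and higher in anagen than in telogen (0.29, adjusted p = 0.0147). Of 48 listed assembly factors 25 were measured. In telogen against catagen 9 were lower (36%, against 19% of all genes) and 3 higher (12%, against 24.5%), with a median of -0.22, against 0.07 over all genes. In anagen against telogen 10 were higher (40%, against 23.7% of all genes) and 3 lower (12%, against 29.2%), with a median of 0.21, against -0.07. NDUFAF8 and ACAD9, which help assemble complex I, had -1.33 (adjusted p = 0.00335) and -0.67 in telogen against catagen. SDHAF1 and ATPAF2, assembly factors of complexes II and V, had -0.90 and -0.81. SDHAF2, which helps attach the flavin to SDHA, went the other way, with 0.51 in telogen against catagen and -0.78 in anagen against telogen.

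Carriers that feed ATP synthase bring ADP and phosphate to it and take ATP away. Of 8 listed carriers and channels 6 were measured, and 3 were lower in telogen than in catagen (50%, against 19% of all genes) and 0 higher (median -0.35). The 3 were the ADP/ATP exchangers SLC25A5 (-0.76) and SLC25A4 (-0.54) and the phosphate carrier SLC25A3 (-0.64). These 3 and the outer membrane channel VDAC1 were higher in anagen than in telogen (66.7%, against 23.7% of all genes), by 0.27 to 0.73. Enzymes of the tricarboxylic acid cycle, which make NADH and succinate, were counted too. Of 12 measured 2 were lower in telogen than in catagen (16.7%), against 19% of all genes, namely IDH3B (-0.42) and SUCLA2 (-0.40), and 1 was higher (8.33%), against 24.5%, namely IDH3G (0.40). In anagen against telogen 2 were higher (16.7%, against 23.7% of all genes) and 3 lower (25%, against 29.2%).

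Of known regulators of nuclear respiratory genes 13 were listed and 12 tested. In telogen against catagen 2 were lower (16.7%, against 19% of all genes) and 2 higher (16.7%, against 24.5%), shares near or below those of all genes, with a median of 0.05. ESRRA, a nuclear receptor that binds many respiratory gene promoters, had -1.12 (SE 0.184, adjusted p = 9.03e-04). Its values were 24.0, 27.6, 21.4 and 23.2 in anagen, 17.7, 28.1, 16.95 and 16.96 in catagen and 7.16, 9.08, 11.8 and 6.41 in telogen, where every library was below all others. POLRMT, the RNA polymerase of mitochondria, was lower too (-0.89, adjusted p = 0.00164). PPARGC1A, the coactivator of ESRRA, was higher in telogen than in catagen (0.44, adjusted p = 0.0153), at low values of 2.32 to 3.36 in telogen against 1.48 to 2.01 in catagen. NRF1, the factor named for its sites in these promoters, had 0.05 (adjusted p = 0.652), and TFAM, which packs and transcribes mitochondrial DNA, had 0.23 (adjusted p = 0.171). In anagen against telogen 3 of the 12 were higher (25%, against 23.7% of all genes) and 5 lower (41.7%, against 29.2%). ESRRA (1.41), POLRMT (0.97) and PPARGC1B (0.38) were higher, and PPARGC1A (-0.64), GABPB1 (-0.63), TFAM (-0.58), YY1 (-0.43) and GABPA (-0.36) were lower.

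Alternative settings moved the counts within limits. In telogen against catagen 31 to 41 members were lower with any 1 library left out. The count was 31 without the March female or the November female, and 39 without the March male, whose mitochondrial share is lowest in telogen. With the trend shared by neighbouring rows removed, 26 were lower and 2 higher, against 18.5% and 18% of all genes in that setting. In anagen against telogen it gave 30 higher and 10 lower, against 24.3% and 24% of all genes, where the main counts were 36 and 3. Without either May library, or without the February male, 1 member was lower in anagen than in telogen. Copies of several of these short transcripts exist in mammalian genomes, and how reads were divided among near-identical copies was not tested.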

How the data were processed

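Per the labels, total RNA of 12 follicle samples was taken with RNAiso Plus and read on an Illumina HiSeq instrument. The submitters' processing notes name kallisto 0.46.1 and sleuth 0.30.0; the genome build is not given in the sources used here. The deposited signal is 1 value per gene and library under a TPM heading; library sums from 904623 to 1127797 show a rescaling across libraries that is not described, and depth is unknown. The plan allowed for counts; the unit was a normalized one, so limma 3.58.1 in R 4.3.3 was used on log2(value + 1), which understates changes of low genes. A gene was tested if 2 or more libraries had a value of at least 1 (16095 genes). Stage comparisons used 3 groups of 4 libraries, month comparisons 6 groups of 2, and the sexes were compared within months; Benjamini-Hochberg adjustment ran over all genes tested. The method was tested on simulated data.

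Gene names came from the RefSeq table by gene ID (20294 matched, 32 did not, all 59 members did), since 26 names differed between files. No pair of libraries had over 1.55% equal values. Members, lists and roles were chosen with earlier results of these data known. Per-library values are printed for the genes with the highest means in each complex, the 5 largest changes each way per stage comparison, members called against the majority, all SDH genes, the ATP5G genes and the NDUFA4 pair; other genes were named, and ESRRA given per library, after their values were seen. Alternatives were other scalings, filters (none; at least 5 in at least 4 libraries), added constants of 0.1 and 5, the replicate block, month means, no May libraries, removal of the trend of 100 neighbouring rows, and each library left out, 23 in all for stage comparisons. The values of 1 member are counted but not reported here.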

Additional observations from a re-analysis of the deposited data

Results flagged for a closer look

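A search of 81 groups of 4 libraries, the named genes and library measures in each stage, found 5 in which 1 library stood apart from the other 3 by more than Dixon's 95% critical value; chance flags about 1 group in 20. NDUFV1 was flagged in all 3 stages: the September male was low in anagen, at 58.8 against 71.3 to 72.7 in the others, the November female was high in catagen, at 81.96 against 47.1 to 52.3, and the March male was high in telogen, at 33.68 against 18.85 to 19.35. NDUFV3 in the December female was 40.92, against 34.4 to 35.3 in the other catagen libraries. Ribosomal protein genes took 20.607% of the signal in the December female, against 24.4 to 24.8% in the other catagen libraries.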

How the results depend on the processing

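In telogen against catagen 27 of 39 called members kept their call in all 23 alternatives, and in anagen against telogen 29 of 39 did. The lower calls in telogen against catagen numbered 38, and 34 to 44 under other scalings, and 26 with neighbouring rows removed, where 2 rather than 1 were higher. With a library left out they numbered 31 to 41. In anagen against telogen 3 were lower, but 5 with quantile normalization, 5 with equal sums without mitochondrial and ribosomal protein transcripts, 10 with neighbouring rows removed, 1 with month means, 1 without both May libraries, and 1 to 6 with 1 library left out (6 without the September male). The F test over months gave 31 members, and 18 to 37 with 1 library left out. The mean log2 level of complex II in telogen was 5.999, but 6.09 with an added constant of 5 and 6.13 with neighbouring rows removed. Removing them made the telogen minus catagen gap smaller, -0.39 against -0.61 for complex I, -0.11 against -0.31 for complex II and -0.32 against -0.59 for complex V. It also made the members' median change smaller, -0.25 against -0.49 in telogen against catagen and 0.35 against 0.51 in anagen against telogen. The median over all genes moved as well, to -0.006 from 0.07 and to -0.001 from -0.07 in these comparisons. Counts of 0 in catagen against anagen, between months of a stage and between sexes remained 0 in every alternative run. With the replicate block (sex) the stage counts were 38 and 1, 36 and 3, and 0 and 0, as without it; the numbers mark sex, and whether libraries of 1 sex share an animal across months is not given in the labels. Correlations of the sex difference between months ran from -0.255 to 0.442, over 0.1 in 9 of 15 pairs, so they neither show a pairing nor its absence. Without month as a block, 0 members differed between the sexes.

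Of 1311 values of named genes 1239 kept direction and call, 26 lost and 15 gained a call, and 31 changed sign, all in genes not called. The causes were not tested. With quantile normalization ATP5G2 had 0.0077 and ATP5J2 0.10 in telogen against catagen, and NDUFS4 -0.037 in catagen against anagen. With median-of-ratios scaling SDHB had -0.0448 in telogen against catagen. With neighbouring rows removed ATP5G2 had 0.16, ATP5J2 0.17 and NDUFA4 0.091 in telogen against catagen, and ATP5E -0.13 and NDUFS5 -0.16 in anagen against telogen. Without both May libraries, anagen against telogen gave ATP5G2 0.14, NDUFA4 0.22 and SDHB 0.015, and catagen against anagen gave ATP5G2 -0.017, NDUFS4 -0.00495, NDUFV3 -0.0089004 and SDHB -0.024. With 1 library left out, telogen against catagen ran from -0.23 to 0.0092 for ATP5J2, -0.29 to 0.027 for ATP5G1, -0.059 to 0.15 for NDUFA3 and -0.037 to 0.043 for SDHB. Anagen against telogen ran from -0.14 to 0.017 for ATP5G2 and -0.25 to 0.075 for NDUFA4, and catagen against anagen from -0.075 to 0.0904 for NDUFS4 and -0.078 to 0.18 for SDHD. A correction for protein length was not run, since no lengths were at hand, and promoter motifs were not examined. Since depth is unknown, no counting error can be given for single values.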
